A study of Mus musculus with 9 samples.

Results

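The cyclin-dependent kinase inhibitors were followed here in cultured mouse brain tumor stem cells with and without a knockout of Gpd1, the cytosolic glycerol-3-phosphate dehydrogenase that links glycolysis to glycerolipid synthesis. The genes were taken by symbol as the members of the Cip/Kip family (Cdkn1a, Cdkn1b and Cdkn1c) and of the Ink4 family (Cdkn2a, Cdkn2b, Cdkn2c and Cdkn2d). All 7 were among the 21899 genes of the deposited table, and all 7 were among the 15827 genes that passed the filter on low values, a mean of 10 or more across all libraries. Polyadenylated RNA was sequenced from 9 libraries in 3 groups of 3. The control libraries came from brain tumor stem cells (BTSC) for which the labels name no edit. The sgRNA1 KO and sgRNA2 KO libraries came from the same kind of cell after transfection with a lentiviral CRISPR/Cas9 vector carrying 1 of 2 guides against Gpd1, selection with puromycin and growth of colonies from single cells. The labels do not say whether the controls carried the vector, passed selection or were grown from single cells, so these steps and the knockout cannot be told apart. Neither do the labels say which libraries are separate colonies or cultures, and the p-values therefore measure only the spread between these samples, which may in part be technical.

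Cell division is driven by cyclin-dependent kinases bound to cyclins. Ink4 proteins bind Cdk4 and Cdk6 and keep the D cyclins from activating them, while Cip/Kip proteins bind the assembled complexes and block above all those of Cdk2. When the kinases are held back, the retinoblastoma protein stays bound to E2F factors and entry into S phase is delayed. Loss of the CDKN2A and CDKN2B locus is among the most frequent events in human glioblastoma, and neural stem cells use several of these inhibitors to leave the cell cycle. Much of the control of p27, the product of Cdkn1b, acts on protein stability, which RNA levels do not show.

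The guide targets are given first, since they define the groups. Both lie in the coding sequence of Gpd1 on chromosome 15 (mm10, GENCODE M21). The target of sgRNA1 is on the plus strand of exon 1 (chr15:99717620-99717639), and that of sgRNA2 is on the minus strand of exon 2 (chr15:99718169-99718188). Each is written 5′ to 3′, with the adjacent PAM, read from the reference transcript, in capitals.
sgRNA1: aaagtctgcattgtcggctcTGG
sgRNA2: tgcattgctacccacgatctTGG

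Values are normalized read counts: reads per gene divided by 1 factor per library and rounded to whole numbers, which sum to between 39781901 and 42975283 per library. Gpd1 stood at 25106, 26566 and 25836 in controls 1 to 3, at 3299, 1347 and 21351 in sgRNA1 KO replicates 1 to 3, and at 10812, 10812 and 6945 in sgRNA2 KO replicates 1 to 3. All 6 KO libraries were below all 3 controls, but sgRNA1 KO replicate 3 kept 82.6% of the control mean. The difference in Gpd1 did not pass the test over both guides (log2 difference -1.99, limma adjusted p = 0.0516) or with sgRNA2 (-1.47, 0.203), and passed with sgRNA1 (-2.50, 0.0391). Small insertions or deletions can leave a transcript in place, so the RNA level does not by itself check the edit. The same library and sgRNA2 KO replicate 1 lay nearest the controls over all genes (correlation of log2 values with the controls 0.962 to 0.972, against 0.909 to 0.945 for the other 4 KO libraries and 0.995 to 0.996 among controls). The median SD of a gene's log2 value was 0.0859 in controls, 0.323 in sgRNA1 KO and 0.344 in sgRNA2 KO. Among stem cell markers, Nes ranged from 8451 to 46053, Sox2 from 7105 to 23374 and Olig2 from 26003 to 39961 over all libraries, while Prom1 was nearly absent at 3 to 31. Over both guides Nes fell (log2 difference -1.36, limma adjusted p = 0.00683) and Sox2 rose (0.94, 0.00851), while Olig2 did not pass (-0.20, 0.317).

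Set per kilobase of merged exons, the inhibitors differed widely in level in control cells. Cdkn2a and Cdkn1a were highest, at 3014 ± 39.2 and 2958 ± 187 normalized reads per kb (SD, n = 3), and their ranges overlapped. Cdkn2c followed at 1894 ± 37.4, Cdkn1b at 1361 ± 34.9, Cdkn2d at 1235 ± 34.3, Cdkn2b at 310 ± 38.2 and Cdkn1c at 5.07 ± 2.04 per kb. Apart from the leading pair, no neighbours in this order had overlapping ranges. Over the 6 KO libraries the order by mean was Cdkn1a, Cdkn2a, Cdkn1b, Cdkn2c, Cdkn2d, Cdkn2b and Cdkn1c, and only Cdkn2b and Cdkn1c were neighbours without overlap. Cdkn1b moved from the fourth place to the third, with 2064 ± 276 per kb in KO (SD, n = 6). The 2 products of Cdkn2a, p16Ink4a and p19Arf, share exons and were counted as 1 gene.

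**Figure D1:**
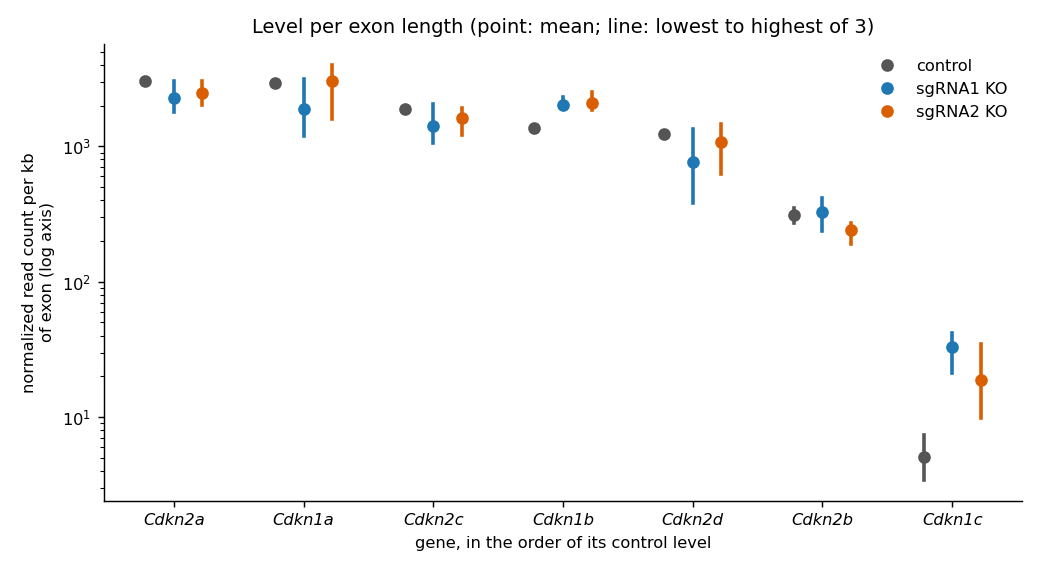
Level of each inhibitor in normalized reads per kb of merged exons (log axis), by group (point: mean of 3 libraries; line: lowest to highest). Cdkn2a and Cdkn1a lead in control cells, and Cdkn1c lies below all others in every group.

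All 6 KO libraries were compared with the 3 controls, and then each guide separately. Cdkn1b and Cdkn1c rose, and the other 5 inhibitors did not pass the test (limma on log2 of the value plus 1, Benjamini-Hochberg adjusted p under 0.05 over all genes tested). The 2 of 7 genes compare with 39.3% of all genes tested that passed in the same comparison (19.1% of all genes higher and 20.2% lower), so the share of inhibitors that passed was not above the background. Median log2 difference over the 7 was -0.36, beside -0.01 over all genes. Cdkn1b and Cdkn1c were also the only 2 inhibitors whose KO and control values did not overlap, as was the case for 44.8% of all genes. In bulk RNA, fewer cells of a type and less RNA per cell cannot be told apart.

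**Figure D2:**
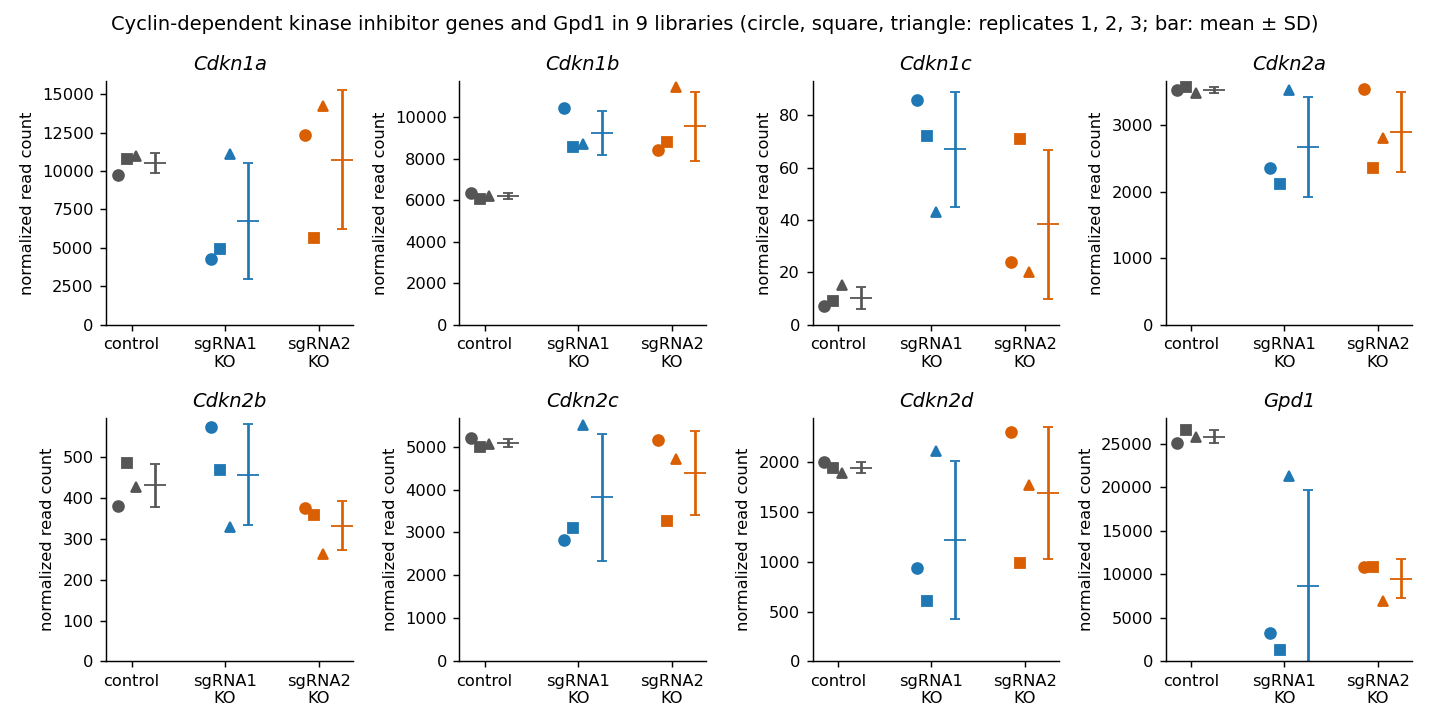
Normalized read count of each inhibitor and of Gpd1 in each of the 9 libraries (1 panel per gene, each with its own axis; symbols for replicates 1 to 3; bar: mean ± SD, its lower end in Gpd1 with sgRNA1 lying below the axis). Every KO library lies above every control for Cdkn1b and Cdkn1c, while the KO libraries of Cdkn1a and Cdkn2d lie on both sides of the controls.

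Cdkn1b encodes p27Kip1, the inhibitor that accumulates in resting cells and restrains Cdk2. The gene lies on chromosome 6 (chr6:134920401-134925513, plus strand, mm10). Its normalized read count was 6349, 6032 and 6209 in the controls, 10444, 8560 and 8716 with sgRNA1 and 8417, 8778 and 11461 with sgRNA2. The lowest KO library was thus above the highest control. The mean rose from 6197 ± 159 (SD, n = 3) to 9396 ± 1254 (SD, n = 6), a log2 difference of 0.59 ± 0.12 (SE; limma adjusted p = 0.00542). In size this difference was larger than that of 57.7% of genes tested. Cdkn1b also varied least among the inhibitors within KO, with an SD of 0.184 on the log2 scale beside a median of 0.364 over all genes. The rise in KO against control passed the test in every one of the 19 alternatives run, with adjusted p between 0.000333 and 0.0354.

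Because the Cdkn1b transcript rose in all 6 KO libraries, the sequence in front of its start is shown. The 250 bases before the RefSeq start (GRCm38.p6, chr6:134920151-134920400, plus strand) held 1 match to the GC box GGGCGG and 2 to CCAAT, searched on both strands and marked in capitals.
Cdkn1b promoter: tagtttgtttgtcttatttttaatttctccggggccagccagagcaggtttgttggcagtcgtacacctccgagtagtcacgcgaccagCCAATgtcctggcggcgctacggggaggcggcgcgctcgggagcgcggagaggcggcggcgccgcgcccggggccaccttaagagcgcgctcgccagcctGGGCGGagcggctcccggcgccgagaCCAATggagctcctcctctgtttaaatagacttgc
Of all 32851 RefSeq promoter windows of this length, 32.7% held a GC box and 33.8% a CCAAT match. A match is a description of the letters only.

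Cdkn1c encodes p57Kip2, an imprinted inhibitor expressed from the maternal copy that is needed for cell cycle exit during development. The gene lies on chromosome 7 (chr7:143458339-143461050, minus strand). Its normalized read count was 7, 9 and 15 in the controls, 86, 72 and 43 with sgRNA1 and 24, 71 and 20 with sgRNA2. Again no KO library overlapped the controls, but every value was low. The log2 difference was 2.11 ± 0.50 (SE; limma adjusted p = 0.0103) on the scale of log2 of the value plus 1, larger in size than that of 95.9% of genes tested. Per kb, Cdkn1c in KO still reached only 25.8 ± 13.5 (SD, n = 6), under the other 6 inhibitors. The call held in all 18 alternatives in which the gene was tested, with adjusted p up to 0.0492, and a filter at a mean of 50 left the gene out. An antisense gene, Gm44732, overlaps 625 bases of its exons, and reads of the pair cannot be told apart without strand, whose use in counting is not given in the sources used here.

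Of 8 tested genes in the imprinted domain of Cdkn1c, 0 passed the test as higher and 2 fell, with a median log2 difference of -0.31. Over all genes tested, 19.1% passed as higher and 20.2% as lower. Those that fell were Tssc4 (-0.68, limma adjusted p = 0.0223) and Nap1l4, a histone chaperone gene (-0.39, adjusted p = 0.0102). Tssc4 lost its call without any 1 of the controls, and Nap1l4 without control replicate 2 or 3. Osbpl5 did not pass (0.55, limma adjusted p = 0.269), but it was at 984 to 1104 in controls and at 2784, 2417 and 2126 in sgRNA1 KO replicates 1 and 2 and sgRNA2 KO replicate 2, the libraries with the most Cdkn1c, against 874 to 1113 in the other KO libraries. Cd81 was likewise above its control range of 28561 to 31679 in these libraries, at 46621, 48310 and, narrowly, 32533 (0.23, adjusted p = 0.356). It was at 27320 to 31646 in the other KO libraries. Cars went the other way there, at 1102, 1181 and 1218, below its control range of 2838 to 3255. In the other KO libraries Cars was at 2498 and 2343, also below the controls, and at 8059 in sgRNA2 KO replicate 3. Cars did not pass (-0.59, limma adjusted p = 0.418). Kcnq1ot1, the paternally expressed long RNA that silences the domain in cis, ranged from 455 to 498 in controls and from 342 to 586 in KO.

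Cdkn1a encodes p21, the inhibitor that p53 induces after DNA damage. It lies on chromosome 17 (chr17:29090976-29100727, plus strand). Its normalized read count was 9754, 10768 and 11007 in the controls, 4265, 4906 and 11086 with sgRNA1 and 12344, 5638 and 14220 with sgRNA2. Of the KO libraries, 3 were below all controls and 3 above, and none lay within the control range. The log2 difference was -0.42 ± 0.39 (SE), with a 95% interval from -1.29 to 0.45 (limma adjusted p = 0.405). The SD over KO libraries was 0.758 on the log2 scale, against 0.0929 in controls.

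Cdkn1a has 2 start sites in the RefSeq table, and both windows are shown because the KO libraries split around the controls for this gene. In the upstream window (chr17:29090729-29090978), capitals mark the only match in any inhibitor's window to paired p53 cores, CATGNNNNNNCATG. That pattern occurred in 0.49% of all windows.
Cdkn1a upstream start: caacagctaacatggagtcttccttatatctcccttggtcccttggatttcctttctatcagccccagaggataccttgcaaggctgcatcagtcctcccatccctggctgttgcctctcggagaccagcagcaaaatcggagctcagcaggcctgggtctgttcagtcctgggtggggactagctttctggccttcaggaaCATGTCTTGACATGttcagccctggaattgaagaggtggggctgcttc
The downstream window (chr17:29093519-29093768) instead held 2 GC boxes, in capitals.
Cdkn1a downstream start: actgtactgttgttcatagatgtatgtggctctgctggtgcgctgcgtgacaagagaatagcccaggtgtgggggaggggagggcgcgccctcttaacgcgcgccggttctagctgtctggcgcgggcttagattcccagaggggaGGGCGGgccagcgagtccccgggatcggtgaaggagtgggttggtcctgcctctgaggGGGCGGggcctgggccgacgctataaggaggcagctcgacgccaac
The table had windows for 6 of the 7 inhibitors, 9 in all. Cdkn1c was not matched. A gene on the opposite strand, AC167363.2, overlaps 273 bases of Cdkn1a exons, with the same limit on telling strands apart.

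The Ink4 genes Cdkn2a and Cdkn2b lie 11645 bases apart on chromosome 4 and differed in pattern. Cdkn2a (chr4:89274471-89294653, minus strand) encodes p16Ink4a and p19Arf, the latter a p53 activator that binds Mdm2. Its values were 3525, 3581 and 3490 in the controls, 2362, 2118 and 3532 with sgRNA1 and 3548, 2353 and 2803 with sgRNA2. No KO library exceeded the controls, 4 were below them and 2 within their range. The log2 difference was -0.37 ± 0.18 (SE; limma adjusted p = 0.12).

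Cdkn2b (chr4:89306299-89311039, minus strand) encodes p15Ink4b, which TGF-beta signaling induces. Its values were 380, 486 and 426 in the controls, 575, 468 and 329 with sgRNA1 and 375, 359 and 264 with sgRNA2. All 3 sgRNA2 KO libraries were below the controls, though narrowly in replicate 1, while sgRNA1 KO spanned them. The log2 difference over both guides was -0.16 ± 0.23 (SE; limma adjusted p = 0.6). Among the 8 tested neighbours of the locus, Mtap, the methylthioadenosine phosphorylase gene often lost together with CDKN2A in human tumors, fell by 1.40 on the log2 scale (adjusted p = 0.00575). Focad also fell, by 0.76 (adjusted p = 0.0123, lost without control replicate 2 or 3). None of the 8 passed as higher, where 19.1% of all genes tested were higher and 20.2% lower, and their median was -0.06. Tusc1 missed the threshold over both guides (1.20, limma adjusted p = 0.0587) and rose with sgRNA2 (1.67, adjusted p = 0.0327). The count of higher neighbours became 2 without sgRNA1 KO replicate 3 and 1 without sgRNA2 KO replicate 3.

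Cdkn2c (chr4:109660876-109667189, minus strand) encodes p18Ink4c, whose gene is also deleted in some human glioblastomas. Its values were 5194, 4995 and 5070 in the controls, 2821, 3114 and 5512 with sgRNA1 and 5158, 3274 and 4708 with sgRNA2. The low values were those of sgRNA1 KO replicates 1 and 2 and sgRNA2 KO replicate 2. The log2 difference was -0.36 ± 0.22 (SE; limma adjusted p = 0.217).

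Cdkn2d (chr9:21288410-21291407, minus strand) encodes p19Ink4d, an inhibitor that keeps neurons out of the cell cycle. Its values were 2001, 1936 and 1894 in the controls, 933, 601 and 2112 with sgRNA1 and 2301, 989 and 1771 with sgRNA2. Here 2 KO libraries were above and 4 below all controls. The log2 difference was -0.58 ± 0.40 (SE), with a 95% interval from -1.47 to 0.31 (limma adjusted p = 0.263). With both KO libraries nearest the controls left out, the log2 differences were -0.56 for Cdkn2a, -0.58 for Cdkn2c and -0.96 for Cdkn2d (limma adjusted p = 0.00565, 0.0262 and 0.0373), and 5 of 7 inhibitors passed where 48.3% of all genes did. These libraries were chosen after the data were seen, for their nearness to the controls, which enlarges differences by construction, so these values are a description and not a test.

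The 3 low libraries of Cdkn1a, Cdkn2a, Cdkn2c and Cdkn2d were the same ones throughout. They were also the libraries farthest from the controls over all genes. Their correlation of log2 values with the controls was 0.909 to 0.937, against 0.938 to 0.972 for the other KO libraries. A pattern shared by these libraries is therefore not particular to the inhibitors or to the lists below. In sgRNA1 KO replicates 1 and 2 and sgRNA2 KO replicate 2, the log2 ratio to the control mean was -1.30, -1.10 and -0.90 for Cdkn1a and -0.85, -0.71 and -0.64 for Cdkn2c. For Cdkn2d it was -1.06, -1.69 and -0.97 in these libraries. Cdkn1c had its 3 highest values there, at 86, 72 and 71 normalized reads. Cdkn1b was not ordered in this way, since its highest value was in sgRNA2 KO replicate 3 (0.89). Over the 9 libraries the most alike inhibitors were Cdkn2a and Cdkn2c, with a root mean square difference of 0.126 between their log2 ratios, followed by Cdkn1a and Cdkn2d at 0.295.

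Proliferation markers moved in the same libraries. Their mean log2 ratio over 17 genes was -2.83 and -2.89 in sgRNA1 KO replicates 1 and 2 and -2.05 in sgRNA2 KO replicate 2, against -0.63, -0.67 and -1.11 in the other 3 KO libraries. Astrocyte markers, 9 genes, stood between 1.37 and 2.54 in the former and between 0.39 and 1.33 in the latter. The part of either in the inhibitors' values was not tested.

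**Figure D3:**
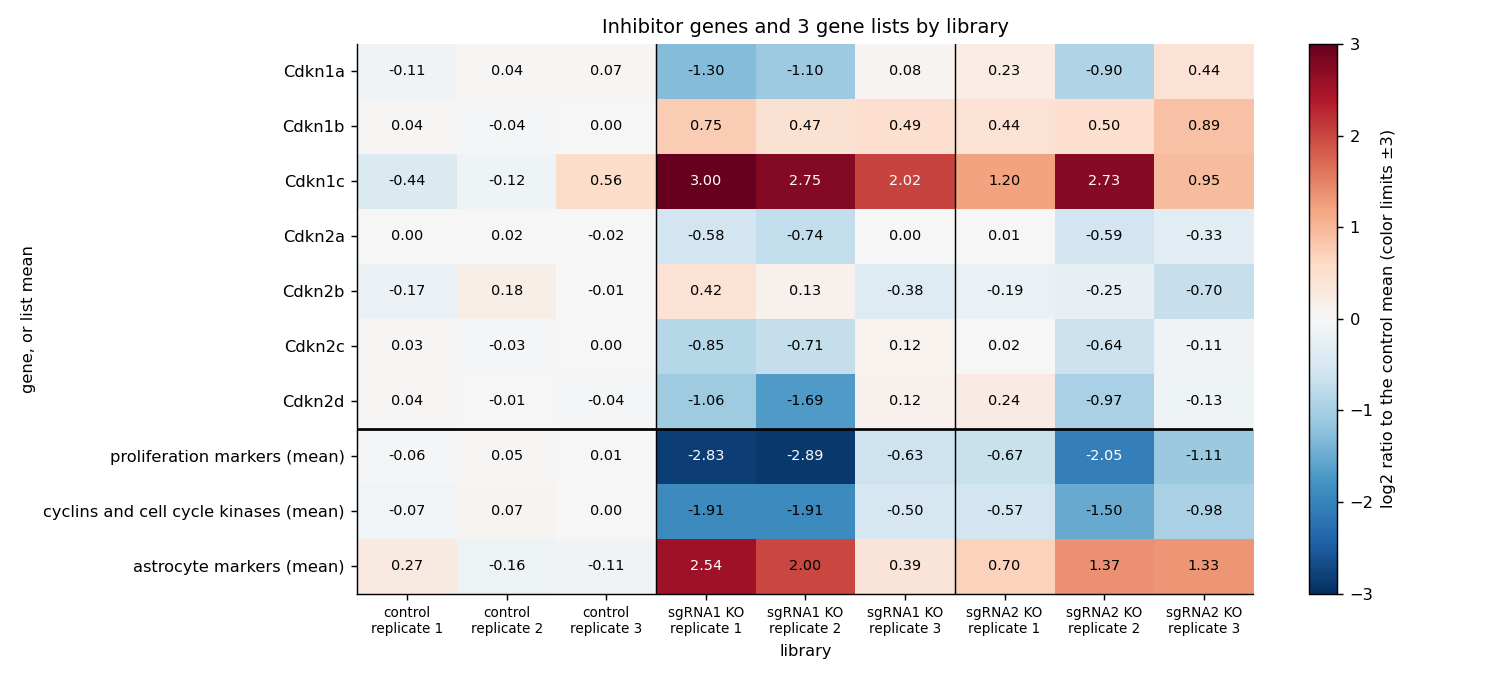
Log2 ratio to the control mean for the 7 inhibitors and, below the line, the mean over 3 gene lists, by library (color scale from -3 to 3). Cdkn1a, Cdkn2a, Cdkn2c and Cdkn2d are lowest in sgRNA1 KO replicates 1 and 2 and sgRNA2 KO replicate 2, where proliferation markers are lowest too, and Cdkn1b is above 0.4 in all 6 KO libraries.

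Guide by guide, in comparisons that share the same 3 control libraries, Cdkn1b rose by 0.57 ± 0.14 with sgRNA1 (SE; limma adjusted p = 0.0188) and by 0.61 ± 0.14 with sgRNA2 (adjusted p = 0.021). Without any 1 of the controls neither call was kept (adjusted p from 0.0532 to 0.092), and the sgRNA1 call was also lost without sgRNA1 KO replicate 1 (0.0727). Cdkn1c rose by 2.59 ± 0.51 with sgRNA1 (adjusted p = 0.00975), and its difference with sgRNA2, 1.63 ± 0.51, missed the threshold (adjusted p = 0.051). With sgRNA1, 2 of 7 inhibitors rose and 0 fell, where 36% of all genes passed (17.1% higher, 18.9% lower). With sgRNA2, 1 of 7 rose and 0 fell, where 22.1% passed (11.4% higher, 10.7% lower). Values did not overlap the controls for 2 of 7 with sgRNA1 (60.5% of all genes) and for 3 of 7 with sgRNA2 (54.6%), the third being Cdkn2b. Without sgRNA1 KO replicate 3, the sgRNA1 comparison called 6 of 7 inhibitors and 49.9% of all genes, with Cdkn1a at -1.20 (adjusted p = 0.0179), Cdkn2a at -0.66, Cdkn2c at -0.78 and Cdkn2d at -1.37.

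The guides were also compared with each other, which tests the difference itself. Of the 7 inhibitors 0 passed, as did 0 of 15827 genes by limma (0% called), while 474 genes and 0 inhibitors had an unadjusted p under 0.05. No inhibitor had values that did not overlap between the guides, as 3.7% of all genes did. The 95% interval of sgRNA2 KO minus sgRNA1 KO ran from -0.29 to 0.37 for Cdkn1b and from -2.12 to 0.20 for Cdkn1c. For Cdkn1a it ran from -0.23 to 1.63, with 3 libraries a side.

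**Figure D4:**
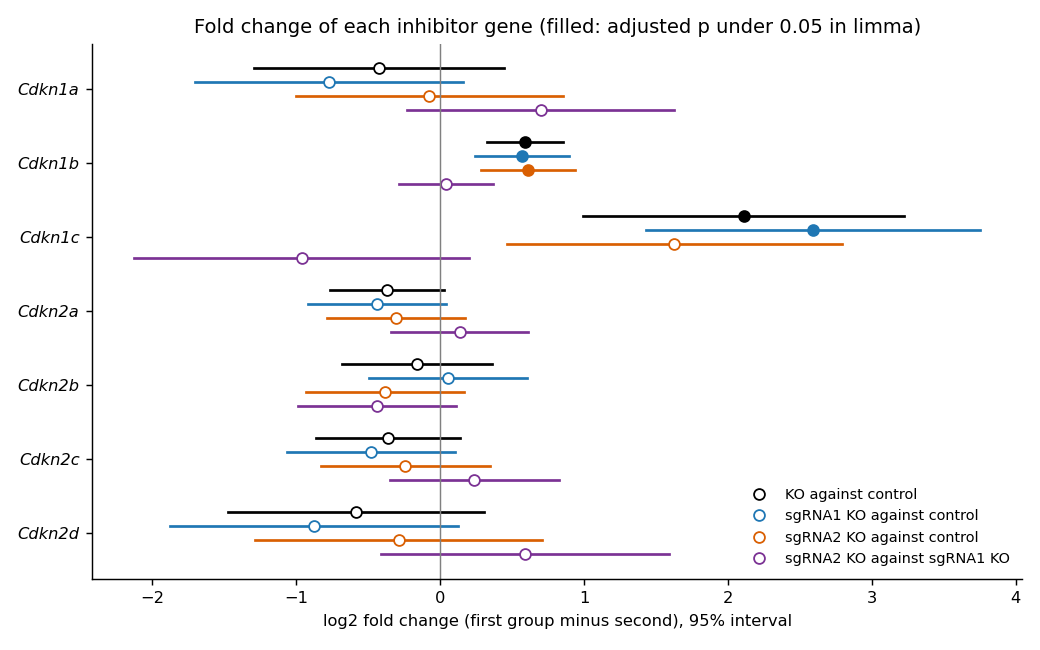
Log2 difference from control with 95% interval for each inhibitor, for both guides together and for each guide, and of sgRNA2 KO from sgRNA1 KO (filled points: adjusted p under 0.05). The intervals of Cdkn1b and Cdkn1c lie above 0 in all 3 comparisons with control, and those of Cdkn1a and the 4 Ink4 genes cross 0.

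The make-up of the inhibitor pool is given as values only. Cdkn1b made up 12.2% to 13.1% of the summed per-kb level of the 7 genes in controls and 15.4% to 30.2% in KO, so the groups did not overlap. The per-kb ratio of Cdkn1b to Cdkn1a was 0.437 to 0.508 in controls and 0.532 to 1.91 in KO. Summed over all 7, the level was 10776 ± 127 per kb in controls (SD, n = 3) and 9660 ± 2470 in KO (SD, n = 6), with overlap. The D cyclins, which the Ink4 proteins oppose, summed to 17029 ± 2914 per kb in controls and 3598 ± 2204 in KO. The ratio of the 7 inhibitors to the D cyclins was accordingly 0.564 to 0.774 in controls and 1.82 to 6.65 in KO.

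Among 14 cyclins and cell cycle kinases, 8 fell and 0 rose, with a median log2 difference of -1.09. Each count for this list and those that follow stands beside the 19.1% of all genes tested that passed as higher and 20.2% as lower. Not all 14 are targets of the inhibitors: Cdk7 (-0.06) and Ccnh (-0.48, limma adjusted p = 0.0118, among those that fell) are not. Ccnd1, the cyclin D1 gene, fell by 3.17 ± 0.56 (SE; limma adjusted p = 0.00333), from 62013 ± 11101 (SD, n = 3) to 8471 ± 5745 (SD, n = 6). Ccnd3 fell by 1.05 (adjusted p = 0.00101). Of 13 pocket protein and E2F genes, 5 fell and 2 rose (median -0.80). Rbl2, which encodes the p130 pocket protein of resting cells, rose by 0.79 (adjusted p = 0.00912), as did Rb1 by 0.79 (0.0491, lost without any 1 control and without sgRNA1 KO replicate 1 or 2 or sgRNA2 KO replicate 2). E2f4, which encodes an E2F factor that binds p130, fell by 0.80 (adjusted p = 0.00268) and Tfdp1, the dimer partner of E2F factors, by 1.35 (0.0109).

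Among genes that act on p21 and p27 stability, 6 of 12 fell and 0 rose (median -0.49). Cul1, the scaffold of the SCF ligase, fell by 0.56 (limma adjusted p = 0.00371), and Ddb1, of the CRL4 ligase, by 0.46 (0.00677). Of p53 and 19 tested targets other than Cdkn1a, 6 fell and 2 rose (median -0.45). The share of these that passed was near the 39.3% of all genes tested. Trp53 itself fell by 1.06 (adjusted p = 0.00771) and the nuclease gene Aen by 1.42 (0.0103, 0.0502 without control replicate 2). The proapoptotic Bbc3 rose by 0.80 (0.00553), and Sesn1 by 0.99 (0.0267, lost without any 1 control or sgRNA2 KO replicate 2).

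Of 15 transcription factor genes known to regulate the inhibitors, 5 fell and 2 rose (median -0.28). Over all genes tested, 20.2% passed as lower and 19.1% as higher. Foxo4 rose by 1.01 (limma adjusted p = 0.00614) and Foxo3 by 0.69 (0.0166, lost without any 1 control). Both encode forkhead factors that activate Cdkn1b. Foxo1, of the same family, did not pass (-0.16, limma adjusted p = 0.259). The part of Foxo genes in the rise of Cdkn1b was not tested. Foxo6 fell by 2.08 (0.0104, 0.0517 without control replicate 3) and Smad3 by 0.38 (0.0124, lost without control replicate 2 or 3). Of 18 genes listed for Polycomb and the Ink4 locus, 6 fell and 4 rose (median -0.12). The list is not of silencers alone, since Kdm6b, among those that rose (0.66, limma adjusted p = 0.0426), opposes Polycomb. Ezh2, the main histone methyltransferase of Polycomb repressive complex 2, fell by 0.97 (0.00803), and its cofactor Eed by 0.97 (0.0033). Ezh1 rose by 0.88 (0.0183) and Ring1 by 0.57 (0.0141), and both calls were lost without control replicate 2 or 3.

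Counts over these lists depended on single controls, as did the count over all genes, which fell from 6227 to between 2777 and 3904 with a control left out. Leaving out 1 library in turn gave 3 to 10 cyclins and kinases lower, 2 to 8 pocket protein and E2F genes, 2 to 7 turnover genes, 1 to 8 p53 genes, 0 to 6 transcription factors and 2 to 7 Polycomb genes. Of 17 proliferation markers 10 fell (median -1.68), with 1 to 17 when a library was left out: the lowest without control replicates, the highest without KO libraries. Mcm7, a replicative helicase subunit, fell by 1.43 (limma adjusted p = 0.00913) and Mki67 by 1.68 (0.0126, 0.0537 without control replicate 2).

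**Figure D5:**
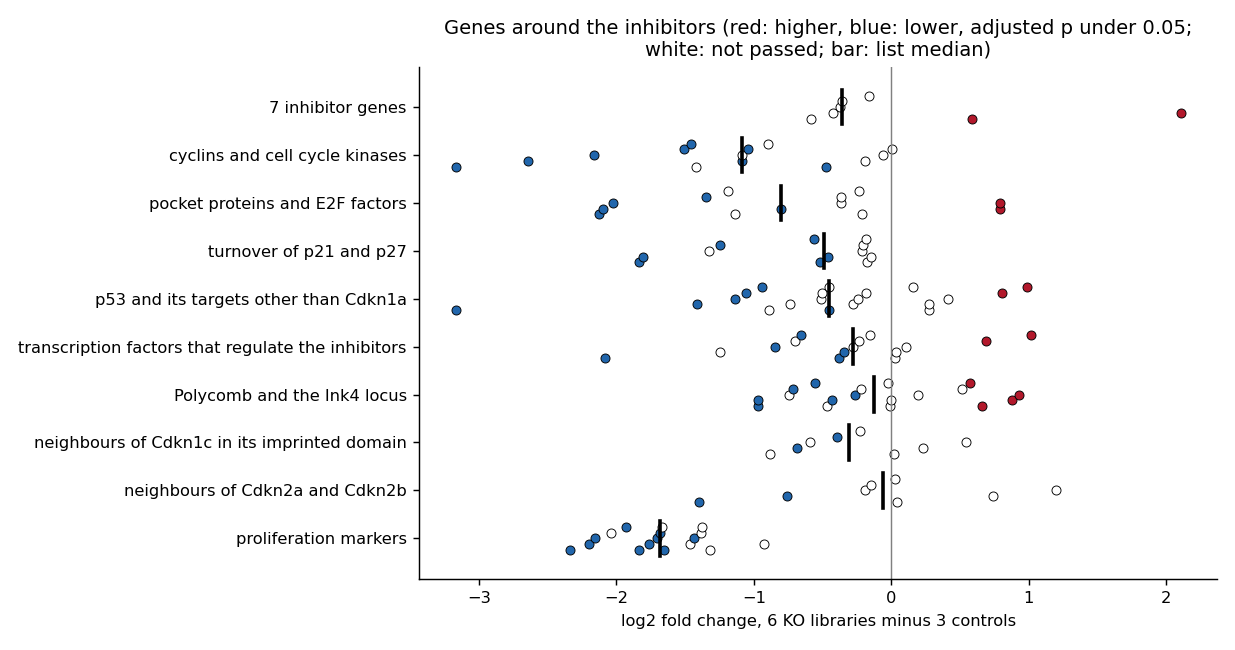
Log2 difference of KO from control for the 7 inhibitors and each tested gene of 9 lists (1 point per gene; bar: median; red higher and blue lower at an adjusted p under 0.05, white not passed). Cyclins, E2F factors and proliferation markers lie mostly below 0, and Polycomb genes spread to both sides.

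Markers of cell types were read beside these values. Each count here and in the next paragraph stands beside 19.1% of all genes tested higher and 20.2% lower. Of 14 stem cell markers 3 rose and 4 fell, among them Hes5 (2.33), Pax6 (0.57), Vim (-0.93) and Cd44 (-1.51), with limma adjusted p between 0.00118 and 0.00544. Of 9 astrocyte markers 4 rose and 0 fell, led by Glul (2.26, adjusted p = 0.000735) and Slc1a2 (2.51, 0.00108). Without passing, Aqp4 (2.27), Gja1 (0.37) and Aldh1l1 (0.14) lay above 0, and Slc1a3 (-0.08) and Gfap (-0.59) below 0. Gfap was at 3348 to 4827 in controls, at 16039, 23509 and 373 with sgRNA1 and at 999, 916 and 2118 with sgRNA2. The summed level of the 9 markers was 111415 to 121222 in controls and 167317 to 349300 in KO. Of 7 oligodendrocyte lineage markers 3 rose and 1 fell, with Cspg4 at 1.40, Cnp at 1.62 and Cldn11 at -2.02, and the sums were 5468 to 7318 and 12570 to 33509. Of 7 neuron markers only Map2 rose (0.85, adjusted p = 0.0478, lost without any 1 control and without 3 of the KO libraries), with sums of 42963 to 44255 and 47910 to 126817. Map2 made up most of these sums, at 42431 to 43613 in controls and 46736 to 123669 in KO. The sums of each list include genes that were analysed but not tested.

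Markers of blood and vessel cells ranged from near 0 to levels like those of the inhibitors. Microglia and macrophage markers, 6 genes analysed and 2 tested, summed to 89 to 117 in controls and 77 to 96 in KO. Ptprc, the pan-leukocyte gene, was at 0 in 4 of the 9 libraries and at 4 or less in the others. Cd68 fell by 0.72 (limma adjusted p = 0.0233, lost without any 1 control). P2ry12, the other gene tested, lay above 0 without passing over both guides (0.86, limma adjusted p = 0.197). With sgRNA2 it passed as higher (1.48, adjusted p = 0.0476), at 11 to 52 normalized reads over all libraries. Endothelial markers summed to 710 to 734 in controls and 220 to 376 in KO, and 2 of 6 fell, Flt1 (-3.62, adjusted p = 0.000878) and Kdr (-1.46, 0.0421, lost without any 1 control and without sgRNA1 KO replicate 1 or sgRNA2 KO replicate 2). Flt1 made up much of the control sums, at 445 to 456 in controls and 14 to 66 in KO. Tek (0.58), Pecam1 (0.37) and Esam (0.29) lay above 0 without passing, and the median of the 6 was 0.14. Of 3 tested pericyte and fibroblast markers 2 fell, Rgs5 (-4.25, 0.000326) and Acta2 (-3.90, 0.00238), with sums of 2235 to 2390 and 49 to 384. Acta2 made up most of these sums, at 2117 to 2290 in controls. Of 5 ependymal markers 3 fell, among them Rsph1 (-1.38, 0.00435) and Foxj1 (-0.89, 0.0126, lost without control replicate 1 or 2), with sums of 4315 to 4700 and 1660 to 3058. Their part in the inhibitors' values was not tested.

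The genes most like each inhibitor over the 9 libraries were found by the root mean square difference of log2 ratios to control, as a description. For Cdkn1b these were Tspan14 (0.0532), Plscr3 (0.0592) and Acadvl (0.0605). For Cdkn1c no gene came nearer than Ankrd66 at 0.324, followed by Lpar4 (0.382) and Ypel4 (0.383). For Cdkn1a they were Ogg1 (0.175), Plvap (0.177) and Etv4 (0.177). Cdkn2a was nearest to Mrpl36 (0.0702), Psmb5 (0.0731) and Ing1 (0.0744). Cdkn2b was nearest to Slc41a1 (0.124), Spaca6 (0.143) and Far1os (0.144). Cdkn2c was nearest to Cops7a (0.0739), Usp5 (0.0809) and Vdac2 (0.0857), and Cdkn2d to Triobp (0.128), Tmem107 (0.141) and Abhd15 (0.141).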

How the data were processed

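RNA from 9 libraries was sequenced. The tools listed in the submitters' processing notes are DESeq2, featureCounts and STAR 2.4.1d, with the mm10 build; the annotation release and strand setting are not given in the sources used here. The deposited score of each gene is a normalized read count, which its values show to be whole numbers scaled by 1 factor per library and rounded. It is not a raw count, and the raw depth is not known, so no count test was run. Log2 of the value plus a pseudocount of 1 was fitted with limma 3.58.1 in R 4.3.3 with a mean-variance trend, over 15827 genes with a mean of at least 10, with two-sided p-values adjusted by Benjamini and Hochberg's method and a threshold of 0.05. All KO libraries together were compared with controls in a model of 2 groups; guides were fitted with 3 groups in 1 model. Levels per kb used merged GENCODE M21 exons. The inhibitors and lists were chosen with earlier results of these data known. From each list up to 2 risen and 2 fallen genes with the smallest adjusted p are named, or the 2 highest where none passed, and for each inhibitor its 3 nearest genes, leaving out predicted genes, clones, pseudogenes and small RNAs. Nes, Sox2, Olig2, Prom1, Ptprc, Kcnq1ot1, Osbpl5, Cd81 and Tusc1 were named after their values were seen. So were Cars, Ccnh, Cdk7, Kdm6b, Gfap, Aqp4, Gja1, Aldh1l1, Slc1a3, P2ry12, Tek, Pecam1, Esam, Sesn2 and Foxo1. Alternatives were other pseudocounts, filters and scalings, variance weights, a replicate block, other groupings and leaving out libraries; leaving out both KO libraries nearest the controls was added after seeing the data.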

Additional observations from a re-analysis of the deposited data

Results flagged for a closer look

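Rbl2, the p130 gene, had 1 KO library apart from the others: in sgRNA2 KO replicate 3, its lowest, the gap to the next library was 0.692 of the range over the 6 KO libraries, above Dixon's 95% critical value for 6 samples. Tusc1, a neighbour of Cdkn2a, was highest in the same library, with a gap of 0.646 of the range. Chance flags about 1 in 20 groups, and the number of groups looked at is not given here. Rbl2 and Tusc1 were not the only genes of the lists with a library apart. In sgRNA2 KO replicate 3 Sesn2 was at 13220, against 1740 to 3887 in the other KO libraries, and Cars at 8059, against 1102 to 2498.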

How the results depend on the processing

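In KO against control, Cdkn1b and Cdkn1c kept their direction and call in every alternative in which each was tested. Of all log2 differences of the inhibitors recomputed, 493 kept direction and call, 19 gained a call, 7 lost one and 9 changed sign; unless said, the cause was not tested. With 1 library left out, the genes called ranged from 2777 to 7597 in KO against control, from 1267 to 7900 with sgRNA1, from 643 to 5480 with sgRNA2 and from 0 to 182 between guides, and the inhibitors called from 2 to 2, 1 to 6, 0 to 2 and 0 to 0. Leaving out both KO libraries nearest the controls, chosen after seeing the data, which enlarges differences by construction, gave 5 inhibitors in KO against control (48.3% of all genes), 6 with sgRNA1 (51.6%) and 3 with sgRNA2 (39.4%, 6243 genes), with 30 genes called between guides. A mean of at least 50 removed Cdkn1c and left 1 inhibitor called in KO against control (42.4% of all genes) and 1 with sgRNA1 (39.9%). Variance weights per group gave 4 inhibitors with sgRNA1 (44.1% of all genes) and 3 in KO against control (55.9%), and a pseudocount of 0.5 gave 2 with sgRNA2 (22.2%). Signs changed for values near 0: Cdkn1a with sgRNA2 was 0.0055 under quantile normalization and -0.33 to 0.34 with 1 library left out. Under the same omission Cdkn2d with sgRNA2 ran from -0.55 to 0.055, Cdkn2b with sgRNA1 from -0.13 to 0.28, and, between guides, Cdkn1b from -0.10 to 0.13 and Cdkn2a from -0.020 to 0.35. Replicate numbers did not pair the samples: correlations of same-numbered deviations ran from -0.345 to 0.332. With the replicate block, 5786, 5241, 2632 and 0 genes were called in the 4 comparisons and 2, 2, 1 and 0 inhibitors. Where a guide is left with 2 libraries, the spread is shared over groups. Raw depth is not known, and Cdkn1c at 7 to 86 normalized reads is the least precisely measured inhibitor.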
